A study of Mus musculus with 6 samples.

Results

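Genes of cholesterol and fatty acid synthesis were examined in mouse kidney. They were chosen by their place in the pathways, with earlier results of these data known. The set holds enzymes of the mevalonate route and of the later sterol route. It also holds genes that sense or carry sterol, and enzymes that supply and build fatty acids. Of 34 listed genes, 32 had an array probe whose annotation gives that symbol alone, out of 18004 genes with such a probe. For each gene the probe with the highest mean over the 6 arrays was used. No probe carried the symbols Acat2 or Stard4, and the probe of Insig1 fell under the filter on dim signal, which left 31 genes tested. Acss2 and Me1, the genes that mark the set, were among them.

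Cells make cholesterol from acetyl-CoA. The mevalonate route turns it into isoprenoid diphosphates, squalene synthase joins these into squalene, and a chain of demethylations, reductions and isomerisations then gives cholesterol. When membrane sterol is low, the Insig proteins release the SREBP transcription factors, which switch on these enzymes and those of fatty acid synthesis. SREBP-1c acts mostly on fatty acid genes and SREBP-2 mostly on sterol genes. Fatty acid synthesis draws on the same acetyl-CoA and on NADPH.

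The 6 single-colour oligonucleotide arrays hold kidney RNA of 3 wild-type animals and of 3 homozygous mutants (labelled KO), each array from its own mouse. The labels used here name neither the mutated gene nor the strain, age or sex of the mice, so the targeted gene could not be checked. Kidney tissue had been frozen after the vessels were flushed with saline. Each level is a log2 intensity over the median of its array. A difference is the mutant mean less the wild-type mean on that log2 scale, with the standard error (SE) of a limma fit over all probes, n = 3 arrays per genotype.

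Among all 14814 genes tested, 5.67% rose and 1.59% fell in mutants past a limma adjusted p of 0.05 (Benjamini-Hochberg over all probes). Of the genes called, 78.1% were higher, against 63.5% after quantile normalization and 65.2% after cyclic loess. All 6 tested kidney markers, Umod and Aqp2 among them, had means above the low-signal limit of 0.60 log2 in both genotypes. Replicate 1 of each genotype stood apart in sex-linked transcripts. Xist, which silences an X chromosome in females, read 2.21 in wild-type replicate 1 and 3.00 in mutant replicate 1. On the other 4 arrays Xist lay at -0.21 or below, and the Y-linked Eif2s3y read 3.01 to 3.46. Eif2s3y stood at the floor (-1.79) on both replicate 1 arrays. Sex thus appears to differ between replicate 1 and the other replicates, although no label gives it. The main fit takes no account of replicate number. The genotypes were therefore also compared within replicates 2 and 3 alone. Of the 30 genes tested in both fits, 4 turned direction there (Lss, Insig2, Sc5d and Elovl6).

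Mutant kidneys had lower Acss2 and Me1 transcript, and no sterol synthesis gene passed the test in the main fit of all 6 arrays. Of the 31 genes tested, 2 fell and 0 rose, while 7 had an unadjusted p under 0.05 (20.8% of all genes did). Without wild-type replicate 3, 1 rose (Pmvk) and 1 fell (Acss2). With a replicate block in the fit, 2 rose (Pmvk and Fdps) and 3 fell (Acss2, Me1 and Cyp51). The genotypes did not overlap in 6 of the 30 genes measured on all 6 arrays, against 26.7% of all genes, so the set did not stand out by that count. The median difference was 0.14, against 0.080 for all genes tested, and the median size regardless of sign was 0.28, against 0.31.

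**Figure D1:**
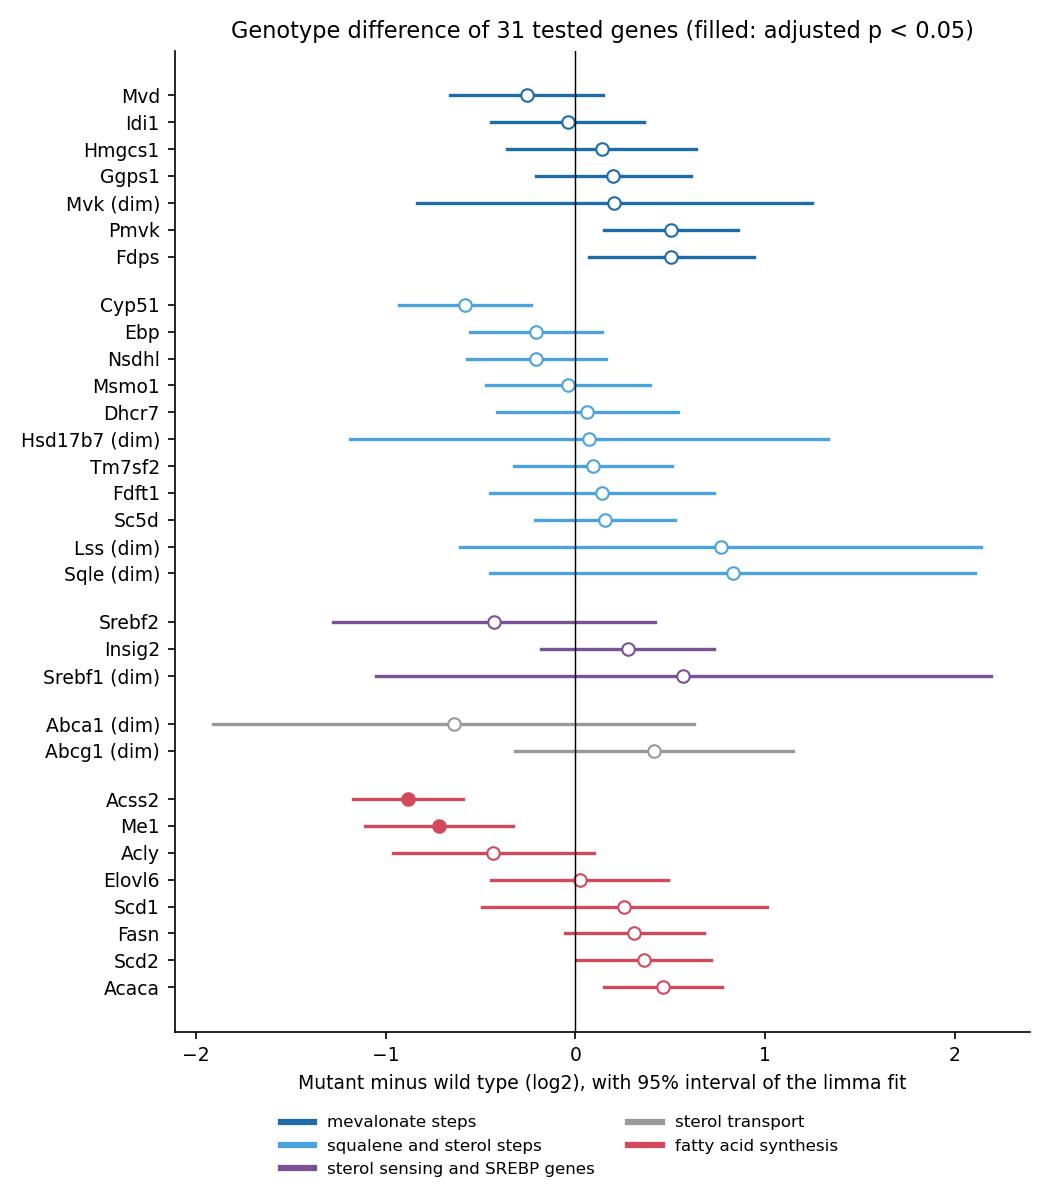
Genotype difference (mutant minus wild type, log2) for the 31 tested genes, grouped and coloured by role, with the 95% interval of the limma fit. Filled circles mark Acss2 and Me1, the genes past an adjusted p of 0.05; "dim" marks 7 genes with a genotype mean under the low-signal limit, and the intervals of 6 of them are the widest of the plot.

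Acss2 encodes the cytosolic synthetase that turns acetate into acetyl-CoA. Its level was 4.35, 4.49 and 4.59 in wild-type replicates 1 to 3 and 3.50, 3.68 and 3.61 in the mutants. The groups were far apart relative to their spread, with SDs of 0.12 in wild type and 0.091 in mutants. Acss2 fell by 0.88 ± 0.13 (SE), which is 1.84-fold (limma, adjusted p = 0.0013). The difference was -0.85 between the replicate 1 arrays and -0.90 within replicates 2 and 3. With no intensity trend in the variance the limma adjusted p was 0.096, and in the other 19 alternatives Acss2 passed.

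Me1 encodes cytosolic malic enzyme, which makes pyruvate and NADPH from malate. Its level was 4.16, 4.98 and 4.74 in wild type and 3.91, 3.83 and 3.98 in mutants. The mutants were close together, wild-type replicate 1 lay near them, and the groups did not overlap. Me1 fell by 0.72 ± 0.18, which is 1.65-fold (limma, adjusted p = 0.033). The difference was -0.26 between the replicate 1 arrays and -0.95 within replicates 2 and 3, where the limma adjusted p was 0.0055. The call did not hold when wild-type replicate 2, wild-type replicate 3 or any 1 mutant array was left out (limma, adjusted p between 0.078 and 0.14), with no floor on low values (0.056) and with no intensity trend (0.28).

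Acly, ATP citrate lyase, cleaves citrate into acetyl-CoA and is the main source of it in the cytosol. It read 1.55, 1.61 and 1.74 in wild type and 1.35, 1.05 and 1.20 in mutants. Every mutant was below every wild type, but the difference of -0.43 ± 0.25 did not pass (limma, adjusted p = 0.42), with a 95% interval from -0.96 to 0.098. Acss2, Me1 and Acly, which supply carbon or NADPH, thus had differences of the same sign.

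The members that build and modify the chain (Acaca, Fasn, Elovl6, Scd1 and Scd2) had positive differences, and none passed. Elongases and desaturases outside the set, given below, had differences of both signs. Acaca, acetyl-CoA carboxylase, which makes malonyl-CoA in the committed step, read 3.12, 3.19 and 3.43 in wild type and 3.71, 3.64 and 3.77 in mutants. All mutants were higher, and the difference was 0.46 ± 0.15 (limma, adjusted p = 0.095, and between 0.060 and 0.33 over the alternatives). Fasn, fatty acid synthase, read 2.75, 3.07 and 3.34 in wild type and 3.42, 3.25 and 3.41 in mutants, a difference of 0.31 ± 0.17 (limma, adjusted p = 0.39), or 0.13 within replicates 2 and 3. Here mutant replicate 2 lay below wild-type replicate 3, so the groups overlapped. A second Fasn probe was below the low-signal limit on every array with a value and was not tested.

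Scd1 and Scd2 encode stearoyl-CoA desaturases, which make monounsaturated fatty acids. Scd2 read 3.15, 3.36 and 3.02 in wild type and 3.75, 3.28 and 3.58 in mutants, a difference of 0.36 ± 0.16 (limma, adjusted p = 0.28). Scd1 lay close to the low-signal limit, with 2 wild-type and 3 mutant arrays above it, and differed by 0.26 ± 0.35. Elovl6, which lengthens palmitate to stearate, had a nearly equal mean in both genotypes (0.024 ± 0.22). Its mutant levels ran from 4.01 to 5.05, a wider range than the 4.19 to 4.57 of wild type, and the difference was 0.49 between the replicate 1 arrays and -0.21 within replicates 2 and 3.

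**Figure D2:**
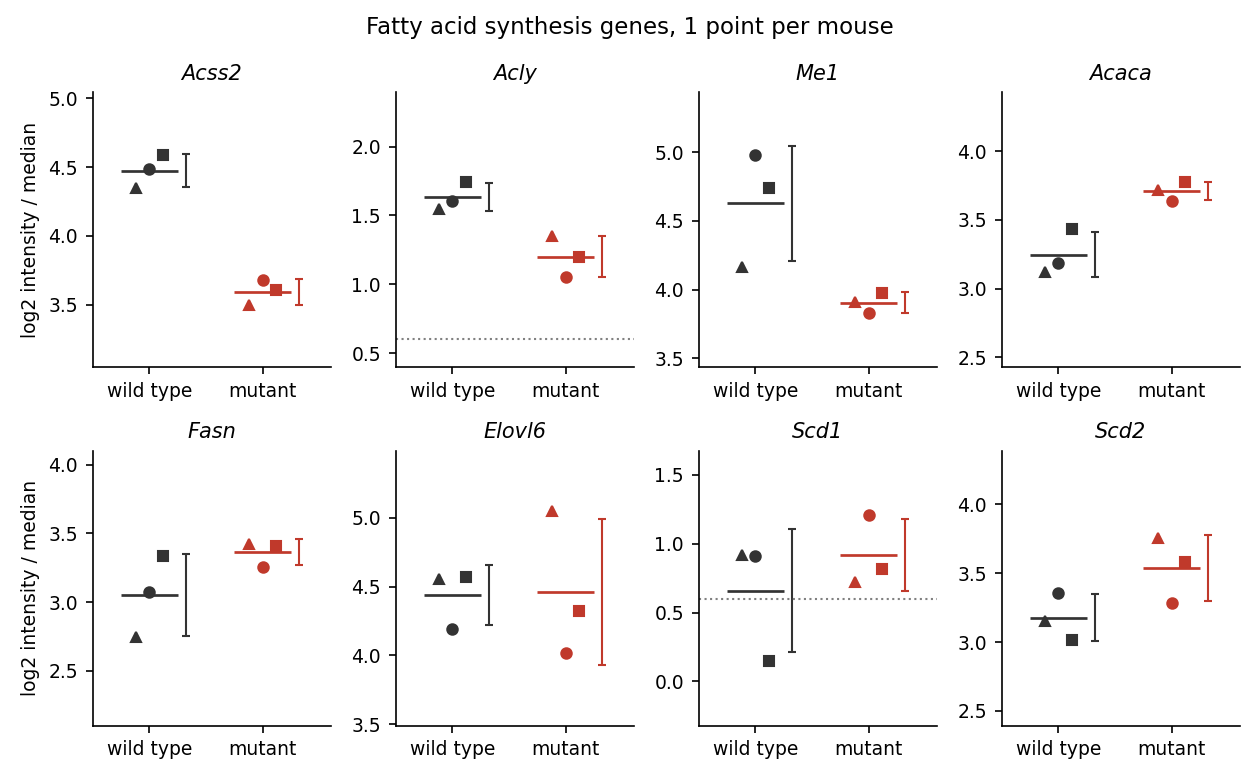
Levels of the 8 fatty acid synthesis genes on each array (log2 intensity over the array median), wild type in black and mutant in red, with the mean as a line and the SD as a bar; triangles, circles and squares are replicates 1, 2 and 3, the dotted line is the low-signal limit, and each panel has its own range of at least 2 log2 units. Acss2, Acly and Me1 are lower in all mutants and Acaca is higher in all mutants.

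Over the 8 fatty acid genes, 2 fell and 0 rose, where 1.59% of all genes fell and 5.67% rose. Differences were negative for 3 and positive for 5. The genotypes did not overlap in 4 of the 8, against 26.7% of all genes measured on all 6 arrays. A share over 8 genes is coarse and was not tested. The median difference of the 8 genes was 0.14, a value near 0 after quantile normalization (-0.00027) or cyclic loess (0.021). Grouped after the values had been seen, and so with no test, Acss2, Acly and Me1 averaged 0.11 to 0.45 above their own 6-array means in wild type and 0.31 to 0.39 below them in mutants. Acaca, Fasn, Elovl6, Scd1 and Scd2 averaged 0.11 to 0.16 below their means in wild type and 0.023 to 0.28 above them in mutants. A single median over the 8 genes hides these opposite directions.

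The promoters of Acss2 and Me1 are shown because these genes carry the calls, that of Cyp51 because it had the smallest p among sterol genes, and that of Hmgcs1 because it alone held the sterol response element searched. Each is 250 bases before to 50 after the outermost listed start in RefSeq (GRCm38.p6), 5′ to 3′ along the gene: chr2:155517793-155518092 (plus strand) for Acss2, chr9:86695865-86696164 (minus) for Me1, chr5:4104648-4104947 (minus) for Cyp51 and chr13:119690101-119690400 (plus) for Hmgcs1. Capitals mark the CCAAT box, bound by NF-Y, a partner of SREBP, and the sterol response element core TCACNCCAC, both searched on both strands.
Acss2: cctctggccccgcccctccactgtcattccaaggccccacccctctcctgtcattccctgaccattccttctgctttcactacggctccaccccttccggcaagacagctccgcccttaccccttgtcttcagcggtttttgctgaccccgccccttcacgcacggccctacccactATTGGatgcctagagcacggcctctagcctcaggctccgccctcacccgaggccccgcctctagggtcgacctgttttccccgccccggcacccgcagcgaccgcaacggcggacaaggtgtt
Me1: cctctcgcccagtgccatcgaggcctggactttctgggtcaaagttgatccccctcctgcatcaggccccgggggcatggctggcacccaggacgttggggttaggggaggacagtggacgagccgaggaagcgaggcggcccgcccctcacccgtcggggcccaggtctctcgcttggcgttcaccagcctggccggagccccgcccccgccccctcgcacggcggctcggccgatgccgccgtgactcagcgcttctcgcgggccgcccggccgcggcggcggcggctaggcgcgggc
Cyp51: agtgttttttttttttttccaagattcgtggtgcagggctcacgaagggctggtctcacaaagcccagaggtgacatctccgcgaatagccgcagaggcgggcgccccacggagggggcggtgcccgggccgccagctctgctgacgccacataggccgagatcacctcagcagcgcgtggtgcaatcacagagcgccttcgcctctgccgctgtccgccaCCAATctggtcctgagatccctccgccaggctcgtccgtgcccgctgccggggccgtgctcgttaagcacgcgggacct
Hmgcs1: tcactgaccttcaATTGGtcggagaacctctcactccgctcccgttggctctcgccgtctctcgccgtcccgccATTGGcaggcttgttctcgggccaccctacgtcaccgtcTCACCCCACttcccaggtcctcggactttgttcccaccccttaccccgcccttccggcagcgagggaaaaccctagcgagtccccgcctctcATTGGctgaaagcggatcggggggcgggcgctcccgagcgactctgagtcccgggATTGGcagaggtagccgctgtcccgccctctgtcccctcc
Hmgcs1 held 4 CCAAT boxes, Acss2 and Cyp51 1 each, and this Me1 promoter 0. A CCAAT box stood in at least 1 listed promoter of 23 of the 27 listed genes found in the table, and of 15 of 16 sterol synthesis genes, against 41.1% of all genes. The sterol response element core stood in 1 of 27 (Hmgcs1), against 1.44% of all genes. These matches describe the letters of the windows, and whether any of them is bound was not tested.

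Transcripts of the sterol enzymes had differences of mixed sign. Of 19 listed sterol synthesis genes 18 were tested, and 0 passed in either direction in the main fit (limma). Of all genes, 5.67% rose and 1.59% fell. An unadjusted p under 0.05 was found for 3 of the 18, against 20.8% of all genes. Differences were positive for 12 and negative for 6. The median difference was 0.11, near the 0.080 of all genes, and it stayed between -0.010 and 0.13 over the alternatives. For the 14 sterol genes with both means above the low-signal limit, every 95% interval of the main fit lay between -0.93 and 0.94. In that fit each interval excludes a 2-fold change in either direction. The intervals are not adjusted for the number of genes, and none are given for the alternatives. There the difference of Fdps reached 0.69 and that of Cyp51 -0.73. For Mvk, Sqle, Lss and Hsd17b7, which were dimmer, the intervals reached from -1.19 to 2.14, and no such bound could be given.

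In the mevalonate steps, Pmvk and Fdps had the largest differences. Pmvk, phosphomevalonate kinase, read 3.97, 3.87 and 4.42 in wild type and 4.38, 4.67 and 4.73 in mutants. Wild-type replicate 3 lay just above mutant replicate 1, and the difference was 0.50 ± 0.16 (limma, adjusted p = 0.11). Pmvk passed in 2 of 20 alternatives. These were the fit without wild-type replicate 3, with a difference of 0.67 (limma, adjusted p = 0.04995), and that with a replicate block (0.036). Fdps, which makes farnesyl diphosphate, the branch point to sterols and prenylated proteins, read 4.62, 4.81 and 5.19 in wild type and 5.29, 5.02 and 5.84 in mutants, a difference of 0.51 ± 0.20 (limma, adjusted p = 0.20). Its groups overlapped through mutant replicate 2 and wild-type replicate 3. Fdps passed in 1 of 20 alternatives, with a replicate block (limma, adjusted p = 0.034).

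The other mevalonate genes differed by between -0.26 and 0.21. Hmgcs1, which condenses acetyl-CoA into HMG-CoA and is an SREBP-2 target, read 1.61, 1.98 and 1.49 in wild type and 1.97, 1.90 and 1.62 in mutants. The groups overlapped, and the difference was 0.14 ± 0.23, with a 95% interval from -0.36 to 0.64. Mvd, mevalonate decarboxylase, differed by -0.26 ± 0.19 and Idi1, the isomerase of isopentenyl diphosphate, by -0.040 ± 0.19. Ggps1, which makes geranylgeranyl diphosphate for protein prenylation and no sterol, read 2.00, 2.16 and 1.88 in wild type and 2.30, 2.16 and 2.19 in mutants. The groups did not overlap, by a margin that rounds away at 2 decimals, and the difference was 0.20 ± 0.19 (limma, adjusted p = 0.67).

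In the later steps, Cyp51, the lanosterol 14-alpha-demethylase, read 5.39, 4.93 and 5.09 in wild type and 4.85, 4.41 and 4.42 in mutants. Every mutant was below every wild type, and the difference was -0.58 ± 0.16 (limma, adjusted p = 0.056). This call sits at the threshold: it passed in 7 of 20 alternatives, including replicates 2 and 3 alone (-0.60, limma, adjusted p = 0.038), quantile normalization (0.047), and the fits without wild-type replicate 2 (0.045) or mutant replicate 1 (0.030). Over all 20 the adjusted p ran from 0.0084 to 0.33. A second Cyp51 probe differed by -0.12 ± 0.19, with overlapping groups, and the mean of both probes gave -0.35.

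The other 7 enzymes of the later steps with means above the limit differed by between -0.21 and 0.16, and none passed. Fdft1, squalene synthase, differed by 0.14 ± 0.27, and Msmo1, the methyl oxidase that acts after Cyp51, by -0.039 ± 0.20. The sterol reductase Tm7sf2 differed by 0.091 ± 0.19, Nsdhl, a decarboxylating dehydrogenase, by -0.21 ± 0.17, and Ebp, the sterol isomerase, by -0.21 ± 0.16. The last enzymes, Sc5d (desaturase) and Dhcr7 (the reductase that forms cholesterol), differed by 0.16 ± 0.17 and 0.063 ± 0.22. Sqle, the epoxidase that is a rate-limiting step, and Lss, which closes the sterol rings, had the largest positive differences of all members (0.83 ± 0.59 and 0.77 ± 0.64), but their means lay below the low-signal limit in wild type, and for Sqle also in mutants. The value of Lss rests on the replicate 1 arrays, where wild type stood at the floor (difference 2.56); within replicates 2 and 3 it was -0.13. For Sqle these differences were 0.49 and 1.00, and for Sc5d 0.49 and -0.0079.

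**Figure D3:**
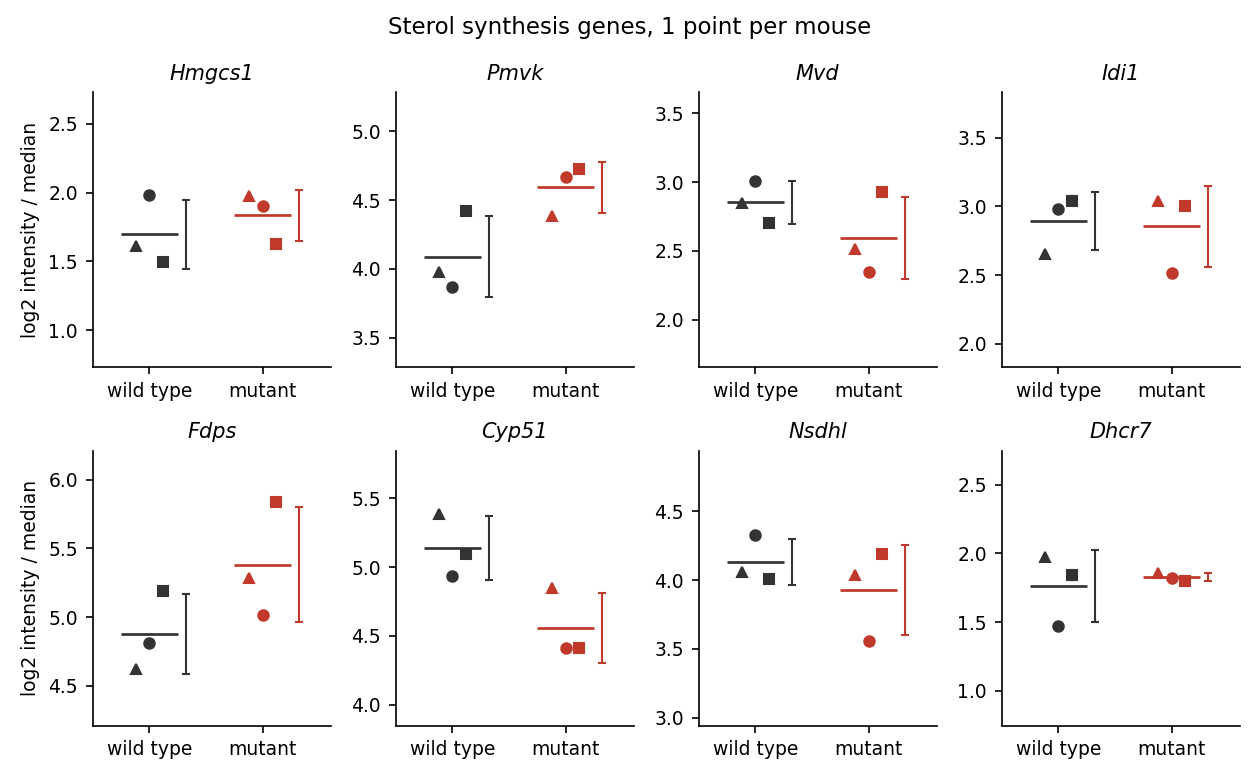
Levels of 8 sterol synthesis genes in pathway order on each array (log2 intensity over the array median), wild type in black and mutant in red, with the mean as a line and the SD as a bar; triangles, circles and squares are replicates 1, 2 and 3, and each panel has its own range of at least 2 log2 units. Cyp51 is lower in all mutants, while the groups overlap in the other 7.

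Among the sterol sensors, Insig2, which holds SREBP in the endoplasmic reticulum, read 3.72, 4.21 and 4.25 in wild type and 4.81, 3.87 and 4.32 in mutants, with overlapping groups and a difference of 0.28 ± 0.21 (limma, adjusted p = 0.58). It was 1.09 between the replicate 1 arrays and -0.13 within replicates 2 and 3. A second Insig2 probe differed by 0.072 ± 0.27. Srebf2, the gene of SREBP-2, differed by -0.43 ± 0.39, with mutant replicate 2 at -0.19 and the other 5 arrays between 0.79 and 1.41, and by -0.89 within replicates 2 and 3. Srebf1, the gene of SREBP-1, and Insig1, itself an SREBP target, lay below the limit on every array with a value, so their differences could not be read. Scap, the escort protein of SREBP, read 5.40 to 5.46 on all 6 arrays (0.019 ± 0.12).

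The sterol exporters Abca1 and Abcg1, targets of the liver X receptor, were dim. Abca1 lay below the limit on all 6 arrays. Abcg1 read 0.42, 0.33 and 0.86 in wild type and 1.14, 1.10 and 0.61 in mutants, so 1 wild-type and 3 mutant arrays were above the limit, and it did not pass (limma, adjusted p = 0.61).

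Other genes of these pathways gave few calls. Of 8 further sterol pathway genes tested 0 passed (limma). An unadjusted p under 0.05 was found for 3 of them, against 20.8% of all genes. Of 5 genes around the liver X receptor 1 rose (5.67% of all genes did), and differences were positive for 3 and negative for 2. An unadjusted p under 0.05 (limma) was found for 3, Pltp, Apoe (0.64 ± 0.27) and Mylip (0.47 ± 0.19), of which only Pltp passed. Pltp, the phospholipid transfer protein, read 2.72, 3.09 and 2.73 in wild type and 5.11, 4.70 and 4.33 in mutants. The groups were more than a log2 unit apart, and Pltp rose by 1.87 ± 0.19 (limma, adjusted p = 4.2e-05), passing in all 20 alternatives. The receptor gene Nr1h3 differed by -0.067 ± 0.16. Of 18 further fatty acid genes 1 fell (1.59% of all genes did) and 0 rose (5.67%). That gene was Idh1, the cytosolic isocitrate dehydrogenase and, like Me1, a source of NADPH. It read 4.28, 4.57 and 4.70 in wild type and 4.09, 3.24 and 2.88 in mutants, and fell by 1.11 ± 0.24 (limma, adjusted p = 0.015). Mutant replicate 1 lay close to wild type. Within replicates 2 and 3 the difference was -1.58. The call did not hold without replicate 2 or replicate 3 of either genotype (limma, adjusted p between 0.055 and 0.078) or with no intensity trend (0.22). Of the 18 further fatty acid genes, 11 had negative and 7 positive differences. An unadjusted p under 0.05 (limma) was found for 3 (Idh1, Lpin1 and Acsl3), against 20.8% of all genes. The genotypes did not overlap in 3 of 17 measured on all 6 arrays (26.7% of all genes), namely Idh1, Fads2 and Elovl7, all lower in mutants. The desaturases Fads1 (0.18 ± 0.15) and Fads2 (-0.26 ± 0.21) did not pass. Nor did the elongases Elovl1 (0.087 ± 0.13), Elovl5 (0.049 ± 0.13) and Elovl7 (-0.26 ± 0.13) or the citrate carrier Slc25a1 (-0.079 ± 0.19).

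Averaged over genes, each set against its own 6-array mean, the 14 sterol genes above the limit lay at -0.044, -0.0028 and -0.0035 in wild type and at 0.052, -0.14 and 0.13 in mutants. The mutants lay on both sides of wild type, with replicate 2 lowest. The 8 fatty acid genes lay at -0.055, 0.099 and 0.072 in wild type and at 0.052, -0.13 and -0.038 in mutants, which overlap too. Neither list as a whole separated the genotypes. The difference between the lists was not tested.

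**Figure D4:**
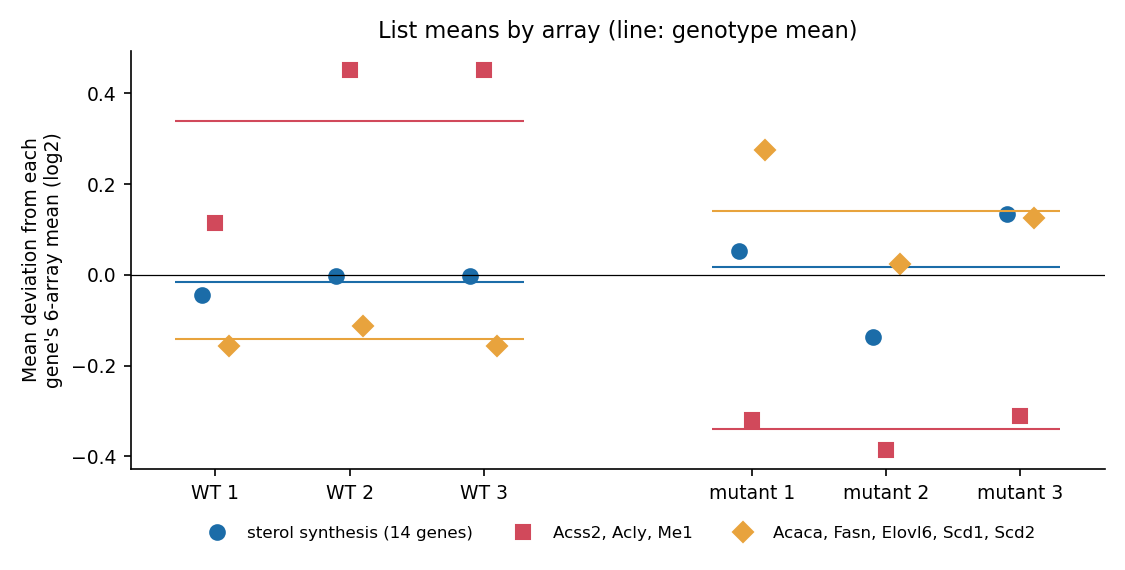
Mean deviation of each array from the genes' own 6-array means (log2) for the 14 sterol synthesis genes above the low-signal limit, for Acss2, Acly and Me1, and for Acaca, Fasn, Elovl6, Scd1 and Scd2; lines are genotype means, and the points of an array are set side by side. The sterol mean of the mutants runs from -0.14 to 0.13 around wild type. The fatty acid groups were formed after the values were seen and match the sign of each gene's difference. Their opposite directions thus follow from the grouping.

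Transcripts of other cell types moved with genotype. The counts below stand beside 5.67% of all genes that rose and 1.59% that fell. Proximal tubule markers fell in 7 of 10 and rose in 0, with a median difference of -0.87. Their summed intensity was 997 to 1112 array medians in wild type and 484 to 583 in mutants. Most of each of these sums was Miox, which read 9.33 to 9.53 in wild type and 8.27 to 8.55 in mutants. Macrophage markers rose in 7 of 10, with sums of 39.6 to 45.4 and 172 to 256. Fibroblast and matrix markers rose in 6 of 7, with a median difference of 1.99 and sums of 80.7 to 120.0 and 371 to 404. The tubular injury markers Havcr1 and Krt20, whose wild-type means lay below the low-signal limit, both rose, with summed intensities of 0.773 to 2.47 in wild type and 45.7 to 48.8 in mutants. Whether these shifts account for the falls of Acss2, Me1 and Idh1 or the rise of Pltp was not tested, and in bulk tissue fewer cells of a type and less RNA per cell cannot be told apart. Fat and adrenal tissue lie beside the kidney and make much lipid. Of 7 adipocyte markers tested, 1 rose, the lipid droplet gene Cidec (1.21 ± 0.16), and 0 fell. Their sums were 88.2 to 103 in wild type and 108 to 145 in mutants. Most of each sum was Fabp4, a fatty acid-binding protein that capillary endothelium also makes, which read 6.20, 6.47 and 6.18 in wild type and 6.72, 6.79 and 6.42 in mutants (0.36 ± 0.16, limma, adjusted p = 0.26). Lep was below the limit on all arrays. Adipoq, the adipocyte hormone adiponectin, read 1.62, -0.081 and 2.78 in wild type and 1.27, 2.01 and -1.47 in mutants. Of the 7 tested, Adipoq (-0.84 ± 0.78) and Retn (-0.83 ± 0.61) had negative differences, and the other 5 positive ones. Adipoq, Retn and Ucp1 varied together between arrays. Within their genotype they were highest in wild-type replicate 3 and in mutant replicate 2. All were lowest in mutant replicate 3. Adrenal markers summed to 4.57 to 5.94 and 5.71 to 7.34, and 0 of 3 tested passed. Star lay below the limit on all arrays, while 1 probe of Nr5a1, the steroidogenic factor SF-1, lay above it on all 6, at 0.83 to 1.85 (0.36 ± 0.27). The part of adipose RNA in the fatty acid results was not tested.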

How the data were processed

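Kidney RNA of 3 wild-type and 3 homozygous mutant mice was labelled with biotin and hybridised to CodeLink arrays, per the labels' protocols; the replicates are different animals, per the series text. The deposited values are linear intensities. Their background subtraction and their scaling by the authors to a median near 1 are read from the values (medians 0.994 to 0.997, minimum -1.02); no label or header names the software. Every value was divided by its array median. Zero and negative values were dropped, a floor was set at the 10th percentile of the positive ones (0.290), and log2 was taken. Probes needed values on 2 arrays of each genotype, and the lowest 25% by mean were left out, which left 25834 tested. Genotypes were compared with limma 3.58.1 (R 4.3.3; lmFit and eBayes with intensity trend, two-sided, Benjamini-Hochberg). The code was tested on simulated data. The low-signal limit of 0.60 log2 is the mode of the linear values (0.524) plus 3 times the spread below it (0.330). Of 34937 probes, 21590 carry 1 gene symbol, 681 several and 12666 none.

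The members and lists were chosen with earlier results of these data known. Values on each array are given for members past the threshold or with non-overlapping genotypes, and for the gene with the highest mean in a role. Of the other pathway genes, those past the threshold are named. Pmvk, Fasn, Scd2, Hmgcs1 and other genes whose values are shown beyond that were chosen after their values were seen. Alternatives covered scaling, low values, filters, variance models, a replicate block, the probe per gene and leaving out arrays. Promoter sequences are from RefSeq, matched by symbol for 27 of 34 genes. The number of arrays limits the precision.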

Additional observations from a re-analysis of the deposited data

How the results depend on the processing

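Probes past the threshold numbered 1392, or 191 with no intensity trend, 912 with only replicates 2 and 3, and 742 to 1230 with 1 array left out, lowest without mutant replicate 2 and next without mutant replicate 1 (881). Members lower in mutants numbered 2, but 1 with no floor, 0 with no intensity trend, 3 (with Cyp51) after quantile normalization, with no filter on dim probes, with array weights or with only replicates 2 and 3, and 1 to 2 with 1 array left out; without wild-type replicate 2 or mutant replicate 1 the 2 were Acss2 and Cyp51. Members higher numbered 0, or 1 at an adjusted p under 0.1 (chosen after seeing the data, as were the list without Ggps1 and the lists above the low-signal limit), and 0 to 1 with 1 array left out. The median of the fatty acid genes was 0.14, or -0.00027 after quantile normalization, 0.021 after cyclic loess, 0.049 with array weights, -0.041 with only replicates 2 and 3, and -0.0057 to 0.19 with 1 array left out. The cause of these shifts was not tested. The sterol median moved by less than the spread between replicates in all 22 alternatives.

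The replicate 1 arrays of both genotypes shared the sex-linked pattern given above. Whether replicate numbers pair the animals beyond that was not settled, because sex-linked probes were kept in the correlations. Deviations of same-numbered arrays correlated weakly, at 0.072, 0.020 and 0.070 over 22989 probes. Every array correlated best with its own number, and other pairs reached at most 0.0034. A replicate block gave 1856 probes past the threshold, against 1392 without it. With a replicate block, 2 members (Pmvk and Fdps, limma, adjusted p = 0.036 and 0.034) were higher and 3 (Acss2, Me1 and Cyp51) lower. Depth of signal limits Srebf1, Insig1, Abca1, Sqle, Lss, Mvk and Hsd17b7, which lay near or below background.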

Other observations

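Mutant replicate 2 was the lowest of the 3 mutants in 12 of 18 sterol synthesis genes, against 30.3% of all 13467 genes measured on all arrays. It was also lowest in 9 of the 14 sterol genes above the low-signal limit. This was noticed after the values were seen and was not tested. That array read 2.35 for Mvd, 2.51 for Idi1 and 3.56 for Nsdhl, where the other mutants read 2.51 to 2.93, 3.00 to 3.04 and 4.03 to 4.19.

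The oxysterol enzymes Ch25h and Cyp7b1 read higher in mutants from a signal below the low-signal limit in wild type. Ch25h, cholesterol 25-hydroxylase, read -0.64, -0.80 and -0.35 in wild type and 0.85, 0.42 and 0.65 in mutants, with no overlap (1.24 ± 0.42, limma, adjusted p = 0.13). Cyp7b1, which breaks down oxysterols, differed by 1.74 ± 0.56 (limma, adjusted p = 0.11), with overlapping groups. Neither passed.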
